A study of Mus musculus with 12 samples.

Results

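The 10 genes described here are 6 Toll-like receptors (TLRs) and 4 genes of the complexes in which they signal. They are Tlr1, Tlr2, Tlr4, Tlr6, Tlr8 and Tlr13, the co-receptors Cd14 and Ly96, the adaptor Myd88 and the inhibitor Irak3. They were chosen by name from the 48795 genes in the count files, and all 10 passed the filter on low counts that left 11228 genes for testing. RNA was sequenced from mouse bone marrow-derived macrophages (BMDMs), which are bone marrow cells grown with the growth factor M-CSF, at 20 µg/L for 8 to 10 days, until they become macrophages.

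There were 6 groups of 2 libraries. Cells came from mice labelled C57BL/6 (wild-type, WT; C57BL/6NJ in the study's methods) or from mice labelled C57BL/6NJ-Acod1em1(IMPC)J/J (Acod1-/-), a germline allele of the enzyme that makes itaconate, so that every cell carries it. The methods give the mice as males of 7 to 11 weeks. Cells of each genotype received vehicle, particulate matter (PM, urban dust) at 20 μg/cm2 for 24 hours, or PM preceded by 2 hours with 0.25 mM of the cell-permeable itaconate ester 4-octyl itaconate (OI+PM). The design asks what PM does to macrophage transcripts and whether OI or the Acod1 allele alters it. No group received OI without PM. Whether the 2 libraries of a group came from separate mice or cultures is not stated, so the p-values rest on a spread between libraries that may be technical. For each gene this spread was estimated over all 6 groups together, and not from the 2 groups compared. In RNA from a whole culture, fewer cells of a type and less RNA per cell cannot be told apart.

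TLRs recognise parts of microbes and products of damaged cells. On the cell surface TLR2 pairs with TLR1 or TLR6 to bind lipopeptides, whereas TLR4 binds lipopolysaccharide together with the secreted protein MD-2, the product of Ly96, after CD14 has passed the ligand on. TLR8 and TLR13 lie in endosomes and read RNA, and mouse TLR13 recognises bacterial ribosomal RNA. All of these receptors signal through MYD88 and the IRAK kinases to NF-κB, and IRAK-M, the product of Irak3, is a macrophage protein that restrains this signal.

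Promoter sequence is shown for the 3 genes with the clearest changes of level, so that the letters near their start sites can be read beside the values. The RefSeq promoter table (GRCm38.p6) matched 7 of the 10 genes (not Tlr4, Ly96 or Cd14), with 10 promoters between them. The stretches run 5′ to 3′ on the strand of the gene and stop before both the RefSeq and the GENCODE start. They are chr3:83841768-83841858 on the minus strand for Tlr2, chr5:64933564-64933808 on the minus strand for Tlr1 and chr10:120202131-120202380 on the minus strand for Irak3. Capitals mark matches to the NF-κB consensus in Tlr2 and to the PU.1 motif in Tlr1, and the Irak3 stretch holds no match.
Tlr2: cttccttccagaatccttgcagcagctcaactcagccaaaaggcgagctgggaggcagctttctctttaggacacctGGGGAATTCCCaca
Tlr1: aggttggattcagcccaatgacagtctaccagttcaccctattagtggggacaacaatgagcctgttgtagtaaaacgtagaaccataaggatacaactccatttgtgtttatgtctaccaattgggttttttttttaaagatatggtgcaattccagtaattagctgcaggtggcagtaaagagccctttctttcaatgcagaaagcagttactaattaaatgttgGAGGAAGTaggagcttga
Irak3: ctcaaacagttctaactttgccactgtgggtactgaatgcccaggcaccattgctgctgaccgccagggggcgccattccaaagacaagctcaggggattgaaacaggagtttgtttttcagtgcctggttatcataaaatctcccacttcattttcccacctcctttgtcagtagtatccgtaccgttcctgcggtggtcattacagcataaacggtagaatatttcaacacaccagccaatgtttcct

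Windows of 300 bases, from 250 before to 50 after each RefSeq start, were searched on both strands for 6 motifs. The NF-κB consensus was found at positions -173, -172 and -8 from the Tlr2 start, the first 2 of these overlapping within the capitals above and the last lying outside the printed stretch, and in no other promoter of the 10. It occurs in 8.46% of all 32851 windows of this length. The PU.1 motif GAGGAAGT (3.2% of windows) was found at position -23 in Tlr1. The interferon-stimulated response element, GAAA followed after any 2 bases by GAAA (3.44%), was found in Myd88 at -40 and in a promoter of Tlr6 at -116 and -110, where the 2 matches overlap. The AP-1 motif TGANTCA (7.81%), the antioxidant response element core TGACNNNGC (12.4%) and the cAMP response element TGACGTCA (1.79%) were found in none of these 10 promoters. A match describes letters and is not evidence of binding.

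Tlr1 (chr5:64924679-64933563) and Tlr6 (chr5:64952031-64960097) are neighbours on the minus strand of GRCm38, and their coding sequences are identical over 229 bases (chr5:64925537-64925765 in Tlr1 and chr5:64953828-64954056 in Tlr6). The run is shown because no 50-base read within it can be told from the other gene.
Tlr1 and Tlr6, shared run: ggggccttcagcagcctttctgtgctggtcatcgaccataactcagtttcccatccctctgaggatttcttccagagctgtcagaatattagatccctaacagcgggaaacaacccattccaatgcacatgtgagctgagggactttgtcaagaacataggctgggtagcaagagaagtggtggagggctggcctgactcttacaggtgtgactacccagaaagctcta

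Of the 50-base windows of Tlr1 transcripts 13.6% also occur in Tlr6, and of those of Tlr6 12.3% occur in Tlr1, so part of the reads of each gene could have been lost or shared, depending on how multiply mapping reads were counted. No window of Tlr2, Tlr8, Tlr13, Cd14 or Ly96 occurs in another gene. Exons of Myd88 (chr9:119335934-119341411) overlap those of Acaa1a on the opposite strand by 290 bases, and exons of Irak3 (chr10:120141648-120202130) overlap opposite-strand genes by 220 bases. As the handling of strand is not known, these parts of Myd88 and Irak3 are uncertain. Of the other genes, Tlr2 (chr3:83836272-83841767), Tlr4 (chr4:66827584-66930284), Tlr8 (chrX:167242696-167264329), Tlr13 (chrX:106143204-106160493) and Ly96 (chr1:16688051-16709611) are protein coding.

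The libraries held 33616577 to 36817898 counts. All 8 macrophage markers were measured in every library, led by Lyz2, and in normalised CPM (counts per 1e6 counts, with library sizes scaled by TMM) they summed to 14340 to 14730 with vehicle, 23190 to 27230 with PM and 14420 to 16540 with OI+PM. This sum was highest with PM, as were Tlr2 and Irak3 below, and its part in their values was not tested. Lyz2 alone reached 21200 CPM, so the sum does not show how the other markers moved. The defining T cell genes Cd3e and Cd3g were at 0 in all 12 libraries. Acod1 reads remained in the libraries labelled Acod1-/-, at 108 and 94.1 CPM with PM against 181 and 170 CPM in WT, a difference that did not pass the test (adjusted p = 0.0807), and counts over the whole gene do not separate the altered part of the allele. Wdfy1 and Nnt, genes other than the target, were chosen to compare the mouse stocks. Both were higher in the libraries labelled Acod1-/- and passed the test under every treatment. With vehicle the log2 values were 2.16 for Wdfy1 (adjusted p = 3.37e-05) and 0.97 for Nnt (adjusted p = 3.83e-05). The Acod1 allele therefore cannot be told apart from other differences between the stocks, which may be of different substrains. In WT cells the 2 PM libraries and the 2 OI+PM libraries stood further apart than the other pairs. The chi-square of their counts per degree of freedom was 27.3 and 58.5, against 2.61 to 8.32 in the other 4 groups. The difference between these WT libraries also went with gene length, with a Spearman correlation across 11214 genes of 0.6 for PM and 0.61 for OI+PM, against values from -0.36 (Acod1-/- with PM) to 0.29 (Acod1-/- with OI+PM) between the libraries of the other 4 groups. As the main fit shares its spread over all groups, its SEs can be too small for these WT groups. They can be too large for the other 4 groups, so a difference there that did not pass may reflect the WT spread.

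Levels between genes were compared as CPM per kilobase of exon. In WT cells with vehicle Tlr13 was the highest of the 10, with a mean of 188 CPM per kilobase, followed by Cd14 at 99.99 and Tlr8 at 64.8. Tlr4 was at 27, Myd88 at 24.7, Tlr1 at 19.2 and Ly96 at 17.7 on this scale. The lowest were Tlr6 at 8.69, Irak3 at 6.54 and Tlr2 at 5.56, and no 2 neighbours in this order overlapped between libraries. The order was the same with vehicle in the libraries labelled Acod1-/-, where only Tlr4 and Myd88 overlapped. With PM, Tlr2 stood above Myd88 and below Tlr8 in both genotypes, at 30.3 CPM per kilobase in WT, where it overlapped Myd88, and 38.4 in the libraries labelled Acod1-/-, and with OI+PM it was again the lowest, at 4.83 and 5.54.

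**Figure D1:**
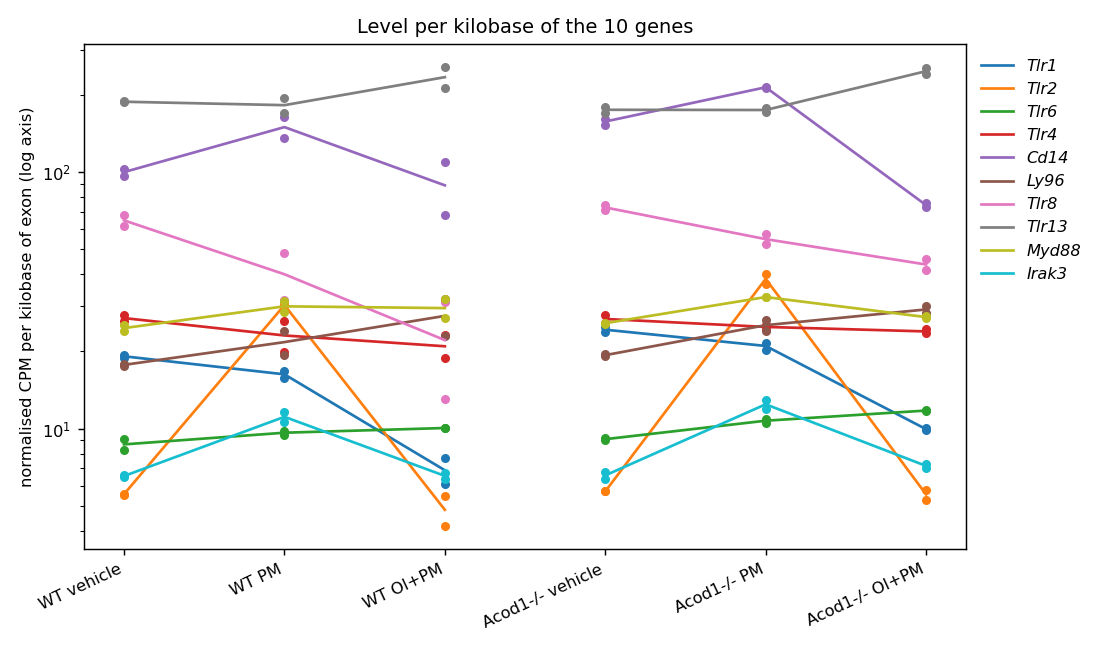
Mean level of each gene in normalised CPM per kilobase of exon, on a log axis, in the 6 groups (lines) with the 2 libraries of each group as points. Tlr2 starts lowest with vehicle, lies above Myd88 with PM and is lowest again with OI+PM, whereas Tlr13 stays between 175 and 247.

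Tlr2 is the shared subunit of the lipopeptide receptors, and it varied most of the 10 genes, over a range of 3 log2 units between group means. Its level was 16.8 and 16.7 CPM in the WT vehicle libraries, 92.3 and 90.5 CPM in the WT PM libraries and 12.6 and 16.5 CPM in the WT OI+PM libraries. The libraries labelled Acod1-/- had 17.2 and 17.2 CPM with vehicle, 121 and 110.0 CPM with PM, and 17.5 and 16 CPM with OI+PM. The 4 PM libraries lay far above the 8 others and overlapped none of them. PM raised Tlr2 5.46-fold in WT (log2 2.45, SE 0.11, adjusted p = 4.77e-07) and 6.73-fold in the libraries labelled Acod1-/- (log2 2.75, SE 0.11, adjusted p = 2.34e-07). OI before PM lowered it 6.29-fold in WT (adjusted p = 5.94e-08) and 6.92-fold in the libraries labelled Acod1-/- (adjusted p = 4.29e-08). Against vehicle, the level with OI+PM differed by a log2 value of -0.21 (SE 0.12) in WT and -0.04 (SE 0.11) in the libraries labelled Acod1-/-, and neither passed the test. The WT difference passed at -0.43 under scaling by total counts (adjusted p = 0.00392) and at -0.39 with gene length corrected for (adjusted p = 0.00269). With a library left out it ranged from -0.41 (without WT OI+PM replicate 2) to -0.02. Adjusted p-values here come from the quasi-likelihood F test of edgeR, adjusted by the method of Benjamini and Hochberg over all 11228 genes, unless another tool is named.

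The 2 partners of TLR2 moved differently. Tlr1 was at 65.1 and 63.1 CPM with vehicle in WT, at 56.3 and 52.7 CPM with PM and at 25.7 and 20.4 CPM with OI+PM. Libraries labelled Acod1-/- had Tlr1 at 79.5 and 83.2 CPM with vehicle, 72.5 and 68.1 CPM with PM and 33.1 and 33.5 CPM with OI+PM. Every treatment group lay apart from the others within a genotype, and the OI+PM libraries were the lowest. PM against vehicle gave log2 values of -0.23 (adjusted p = 0.0981) and -0.21 (adjusted p = 0.137), which did not pass, although the second passed when the 4 libraries compared were fitted alone (log2 -0.20, adjusted p = 0.0102) and the first when gene length was corrected for together with a replicate block (log2 -0.32, adjusted p = 0.0319). With OI before PM, Tlr1 fell by 1.24 on the log2 scale in WT (SE 0.10, adjusted p = 4.78e-06) and by 1.08 in the libraries labelled Acod1-/- (SE 0.10, adjusted p = 1.28e-05).

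Tlr6, the alternative partner, varied little, by 0.44 log2 units between group means. It was at 34 and 30.8 CPM, 36.6 and 35.3 CPM, and 37.5 and 37.5 CPM in the WT vehicle, PM and OI+PM libraries. The corresponding libraries labelled Acod1-/- had 33.7 and 34.2 CPM, 40.8 and 39.3 CPM, and 43.7 and 44 CPM. The vehicle libraries of both genotypes were the lowest. Tlr6 rose with PM in the libraries labelled Acod1-/- by 0.24 (adjusted p = 0.0282), a call that was lost with any of the 4 libraries left out (adjusted p 0.072 to 0.162) and under scaling by total counts (log2 0.16, adjusted p = 0.121). The ratio of Tlr1 to Tlr2 per kilobase was 3.49 and 3.4 in the WT vehicle libraries, 0.549 and 0.525 with PM and 1.84 and 1.11 with OI+PM. That of Tlr1 to Tlr6 was 2.13 and 2.28 in the WT vehicle libraries and 0.762 and 0.607 in the WT OI+PM libraries, so that the order of the 2 genes was exchanged. In the libraries labelled Acod1-/- this ratio was 2.63 and 2.71 with vehicle and 0.844 and 0.848 with OI+PM.

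**Figure D2:**
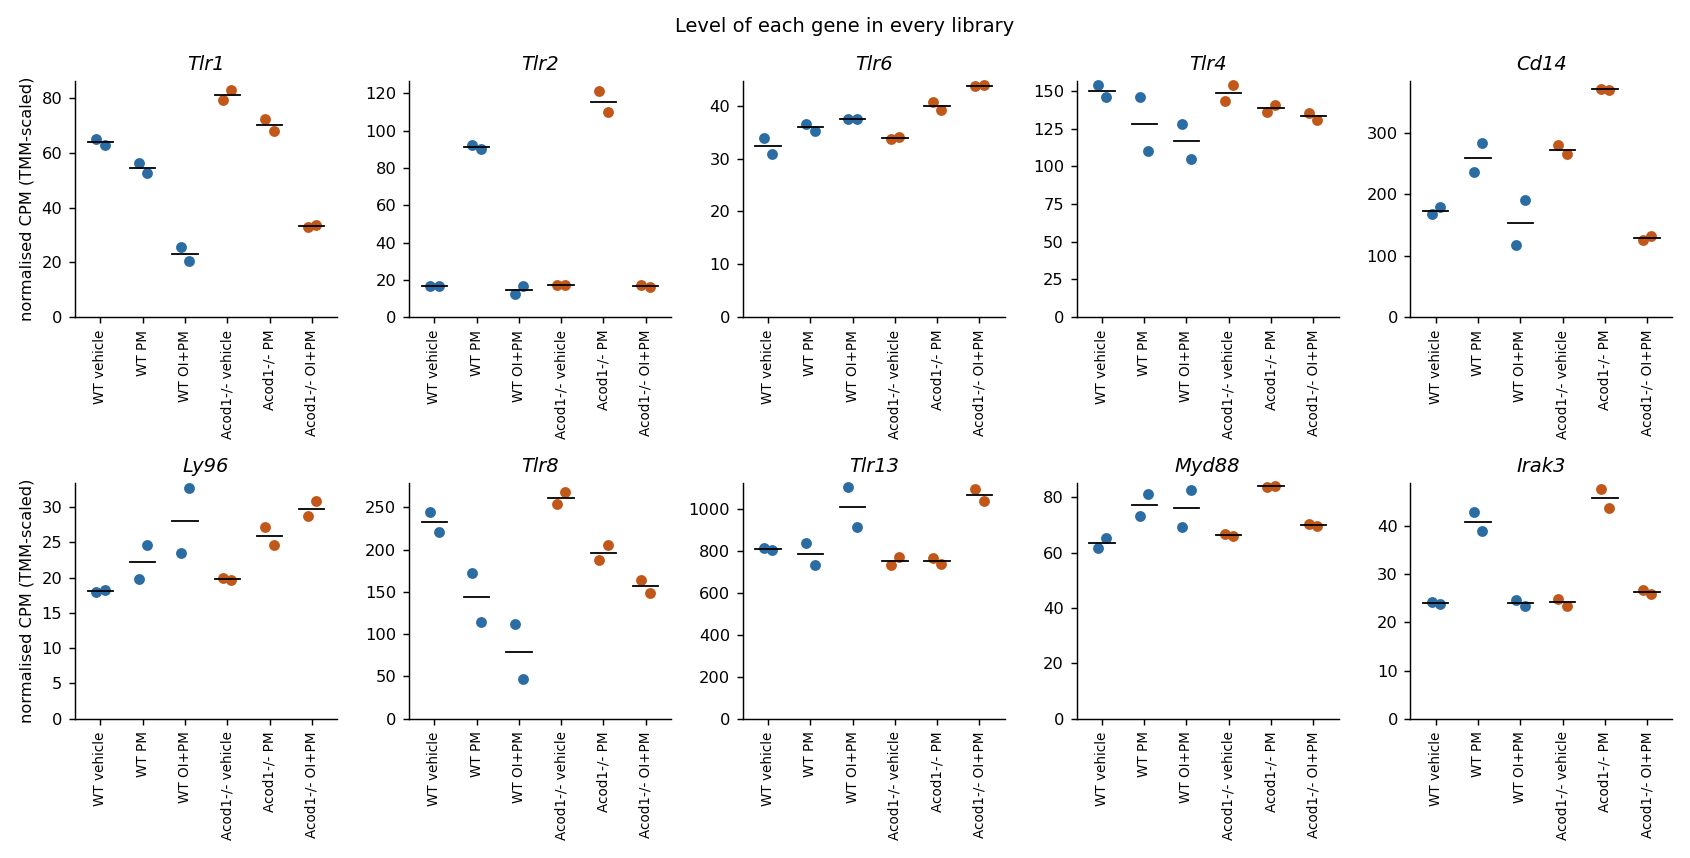
Normalised CPM of each gene in every library, from 0, with replicate 1 left and replicate 2 right in each group, a bar at the group mean, WT in blue and Acod1-/- in orange. Tlr2 and Irak3 are high in the 4 PM libraries, Tlr1 is lowest in the 4 OI+PM libraries, and the Tlr8 points of the WT PM and WT OI+PM groups lie far apart.

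Tlr4, the lipopolysaccharide receptor, was the least variable of the 10, over 0.37 log2 units. It was at 154 and 146 CPM with vehicle, 146 and 110.4 CPM with PM and 128 and 105 CPM with OI+PM in WT, and between 131 and 154 CPM in the 6 libraries labelled Acod1-/-. The only call for Tlr4 with all libraries was a decrease with OI+PM against vehicle in WT, by 0.36 on the log2 scale (SE 0.13, adjusted p = 0.0299), and it did not pass without WT vehicle replicate 1 (adjusted p = 0.129), WT vehicle replicate 2 (0.0663) or WT OI+PM replicate 2 (0.16), nor when the compared libraries were fitted alone (0.0746). Other differences of Tlr4 passed with a library left out, PM against vehicle in WT at -0.44 without WT PM replicate 1 (adjusted p = 0.0263) and OI+PM against PM in WT at -0.33 without WT PM replicate 2 (adjusted p = 0.0445), besides a genotype difference given below. The fit of the compared libraries alone gave a call for OI+PM against vehicle in the libraries labelled Acod1-/- (log2 -0.14, adjusted p = 0.00193).

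Cd14, which hands lipopolysaccharide to TLR4 and MD-2, was at 168 and 178 CPM in the WT vehicle libraries, 235 and 283 CPM with PM, and 117 and 190.2 CPM with OI+PM. In the libraries labelled Acod1-/- it was at 280.0 and 265 CPM with vehicle, 371 and 369.8 CPM with PM, and 126 and 131 CPM with OI+PM. The PM libraries were the highest of each genotype. Cd14 rose with PM in WT by 0.58 (SE 0.18, adjusted p = 0.0391), a call lost without WT vehicle replicate 1 (adjusted p = 0.195), WT vehicle replicate 2 (0.125) or WT PM replicate 2 (0.236), whereas the difference of 0.44 in the libraries labelled Acod1-/- did not pass (adjusted p = 0.0971). It passed in 4 of 10 other settings, among them the fit of the compared libraries alone (log2 0.45, adjusted p = 1.8e-05) and the correction for gene length (log2 0.28, adjusted p = 0.0335). OI before PM lowered Cd14 by 0.75 on the log2 scale in WT (SE 0.18, adjusted p = 0.00681), or by 0.45 without WT OI+PM replicate 1 and 1.14 without WT OI+PM replicate 2, with the test passed in both cases. The WT call was lost when the compared libraries were fitted alone (log2 -0.78, adjusted p = 0.0861). In the libraries labelled Acod1-/- the decrease was 2.88-fold (log2 -1.53, SE 0.18, adjusted p = 9.36e-05), to below the vehicle level (log2 -1.08, adjusted p = 0.000678). The corresponding WT difference from vehicle was -0.17 (adjusted p = 0.409), and became -0.56 without WT OI+PM replicate 2 (adjusted p = 0.000657), 0.14 without WT OI+PM replicate 1 (adjusted p = 0.221) and -0.55 when gene length was corrected for (adjusted p = 0.000276).

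Ly96, which encodes the ligand-binding subunit MD-2, was at 17.9 and 18.3 CPM with vehicle, 19.9 and 24.6 CPM with PM and 23.5 and 32.7 CPM with OI+PM in WT. With the Acod1-/- label these values were 19.9 and 19.6 CPM, 27.1 and 24.6 CPM, and 28.7 and 30.8 CPM. No OI+PM library was as low as any vehicle library. Ly96 was higher with OI+PM than with vehicle by 0.63 in WT (SE 0.15, adjusted p = 0.00435) and by 0.59 in the libraries labelled Acod1-/- (SE 0.15, adjusted p = 0.00816), while neither step on its own, PM against vehicle or OI+PM against PM, passed the test with all libraries. In the libraries labelled Acod1-/- both steps passed when the compared libraries were fitted alone, PM at 0.39 (adjusted p = 0.000813) and OI+PM against PM at 0.21 (adjusted p = 0.0281), and the second also with gene length corrected for (log2 0.19, adjusted p = 0.0194). OI+PM against PM in WT passed at 0.5 without WT PM replicate 2 (adjusted p = 0.0439) and at 0.56 without WT OI+PM replicate 1 (adjusted p = 0.00179). The Acod1-/- call was lost without Acod1-/- OI+PM replicate 2 (log2 0.54, adjusted p = 0.0558), and the WT value was 0.15 (adjusted p = 0.0557) when gene length was corrected for together with a replicate block. Per kilobase, the ratio of Ly96 to Tlr4 was 0.634 and 0.682 in the WT vehicle libraries and 0.996 and 1.7 in the WT OI+PM libraries.

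Among the endosomal receptors, Tlr13 was the most abundant. It was at 814 and 805 CPM, 837 and 732 CPM, and 1105 and 912 CPM in the WT vehicle, PM and OI+PM libraries, and at 734 and 772 CPM, 765 and 738 CPM, and 1094 and 1035 CPM in those labelled Acod1-/-. The 4 OI+PM libraries were the highest. Tlr13 rose with OI before PM by 0.36 in WT (SE 0.09, adjusted p = 0.0104) and by 0.5 in the libraries labelled Acod1-/- (SE 0.09, adjusted p = 0.00195). The WT call was lost without WT PM replicate 2 (log2 0.27, adjusted p = 0.0669), when libraries were scaled by total counts (log2 0.24, adjusted p = 0.115) and when the compared libraries were fitted alone (log2 0.35, adjusted p = 0.176). PM against vehicle gave -0.04 and 0.00, neither of which passed.

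Tlr8 was at 244 and 221 CPM with vehicle, 173 and 114 CPM with PM, and 112 and 46.8 CPM with OI+PM in WT. With the Acod1-/- label it was at 254 and 268 CPM, 187 and 205.7 CPM, and 165 and 148 CPM. The vehicle libraries were the highest and the OI+PM libraries the lowest within each genotype. The replicates differed by 0.6 log2 units in the WT PM group and by 1.26 in the WT OI+PM group, the largest replicate difference of the 10 genes in both. Tlr8 was lower with OI+PM than with vehicle in WT, 2.92-fold (log2 -1.55, SE 0.32, adjusted p = 0.00227), and leaving out a library moved this between -1.05 (without WT OI+PM replicate 2) and -2.31 (without WT OI+PM replicate 1), with the test passed in all 4 cases. In the libraries labelled Acod1-/- neither value with OI+PM passed, at -0.74 against vehicle (SE 0.32, adjusted p = 0.0783) and -0.33 against PM (SE 0.32, adjusted p = 0.475). Both passed when the compared libraries were fitted alone, and the first also with a replicate block (log2 -0.75, adjusted p = 0.046). The differences with PM against vehicle did not pass, at -0.70 in WT (adjusted p = 0.128) and -0.41 in the libraries labelled Acod1-/- (adjusted p = 0.361). The WT value ran from -0.43 without WT PM replicate 2 to -1.03 without WT PM replicate 1, neither of which passed, and both genotypes passed when the compared libraries were fitted alone (adjusted p = 0.0371 and 0.000155). With OI+PM against PM in WT the log2 value of -0.85 did not pass (adjusted p = 0.0549). It passed at -0.88 with a replicate block (adjusted p = 0.0291) and at -0.96 under scaling by total counts (adjusted p = 0.0476). The value was -1.62 without WT OI+PM replicate 1 and -1.12 without WT PM replicate 2. It was -0.52 without WT PM replicate 1 and -0.36 without WT OI+PM replicate 2.

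Myd88, the adaptor shared by these receptors, was at 61.8 and 65.3 CPM with vehicle, 73.2 and 81.3 CPM with PM and 69.4 and 82.7 CPM with OI+PM in WT. The corresponding values in the libraries labelled Acod1-/- were 66.6 and 66.1 CPM, 83.7 and 84.1 CPM, and 70.5 and 69.7 CPM. The vehicle libraries were the lowest of each genotype. Myd88 rose with PM by 0.28 in WT (SE 0.09, adjusted p = 0.0423) and by 0.34 in the libraries labelled Acod1-/- (SE 0.09, adjusted p = 0.0195). The WT call did not pass without WT vehicle replicate 1 (adjusted p = 0.229), WT vehicle replicate 2 (0.113) or WT PM replicate 2 (0.265), and the other call did not pass with any of its 4 libraries left out (adjusted p 0.0851 to 0.114). The WT call was also lost under 5 other settings (adjusted p 0.0554 to 0.082), with a log2 value of 0.19 under scaling by total counts and 0.14 when gene length was corrected for.

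Irak3, the gene of the inhibitor IRAK-M, followed the same course as Tlr2 on a smaller scale. It was at 24.2 and 23.9 CPM, 42.8 and 39 CPM, and 24.7 and 23.4 CPM in the WT vehicle, PM and OI+PM libraries, and at 24.9 and 23.5 CPM, 47.7 and 43.8 CPM, and 26.8 and 25.9 CPM in those labelled Acod1-/-. The 4 PM libraries were above the 8 others. PM raised Irak3 1.7-fold in WT (log2 0.77, SE 0.08, adjusted p = 8.03e-05) and 1.89-fold in the libraries labelled Acod1-/- (log2 0.92, SE 0.08, adjusted p = 1.93e-05), and OI before PM lowered it 1.7-fold (adjusted p = 2.93e-05) and 1.74-fold (adjusted p = 2.2e-05). As a description across the 12 libraries, which share their treatments, Pearson's r of log2 CPM between Irak3 and Tlr2 was 0.98. It was 0.75 between Cd14 and Tlr2, 0.92 between Tlr8 and Tlr4, and -0.89 between Cd14 and Tlr13. Differences between replicates also enter these values. Both Tlr8 and Tlr4 were lower in replicate 2 than in replicate 1 of the WT PM and WT OI+PM groups.

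Counted over the 10 genes, PM raised 4 and lowered none in WT (Tlr2, Cd14, Myd88 and Irak3), where 24.8% of all genes tested passed, 12.6% higher and 12.2% lower. PM raised 4 in the libraries labelled Acod1-/- as well (Tlr2, Tlr6, Myd88 and Irak3), beside 23.9% of all genes (12% higher and 11.9% lower). The median log2 fold change of the 10 was 0.22 in WT and 0.29 in the libraries labelled Acod1-/-, beside medians of 0.01 and 0 over all genes tested. Tlr2 alone of the 10 also reached a 2-fold change, which 4.15% and 4.5% of all genes did. The count of 4 fell to 2 (Tlr2 and Irak3) without WT vehicle replicate 1, WT vehicle replicate 2 or WT PM replicate 2 in WT, and without any of the 4 libraries in the other genotype. In these fits the share of all genes also fell, to 10.6%, 11.3% and 12.4% in WT and to between 12.4% and 15.2% in the libraries labelled Acod1-/-. Scaling by total counts moved the share of calls that were increases from 50.8% to 34.9% in WT and from 50.1% to 37.1% in the libraries labelled Acod1-/-. Both comparisons use vehicle libraries that also serve as controls for OI+PM below. Their PM libraries also serve as the baseline for OI before PM, so noise in a PM library moves these comparisons in opposite directions.

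OI before PM raised 1 of the 10 (Tlr13) and lowered 4 in WT (Tlr1, Tlr2, Cd14 and Irak3), beside 43.9% of all genes called (21.3% higher and 22.6% lower). In the libraries labelled Acod1-/- it raised Tlr13 and lowered the same 4 genes and Myd88 (log2 -0.26, adjusted p = 0.0435), 6 of 10 beside 34.6% of all genes (13.9% higher and 20.6% lower), and the Myd88 call did not pass with any of its 4 libraries left out (adjusted p 0.132 to 0.173) or under a filter of at least 10 counts (0.0725). A change of at least 2-fold was reached by Tlr1 and Tlr2 in WT and also by Cd14 in the libraries labelled Acod1-/-, and by 10.8% and 9.83% of all genes. The median of the 10 was -0.45 in WT and -0.29 in the libraries labelled Acod1-/-, beside 0.02 and 0 over all genes. The 5 of 10 in WT lie close to the share of all genes. Scaling by total counts moved the median of all genes in this WT comparison to -0.11, and the share of calls that were increases from 48.5% to 29.9% in WT and from 40.3% to 29.7% in the libraries labelled Acod1-/-. Under that scaling the directions given for the called genes among the 10 in these 2 comparisons were kept.

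Against vehicle, OI+PM gave 7 calls in WT, beside 65.5% of all genes (33.6% higher and 31.9% lower). Tlr6, Tlr13, Ly96 and Myd88 were higher and Tlr1, Tlr4 and Tlr8 lower. The libraries labelled Acod1-/- gave 5 calls, beside 49.4% of all genes (22.7% higher and 26.7% lower), with Tlr6 (log2 0.37), Tlr13 and Ly96 higher and Tlr1 and Cd14 lower. A change of at least 2-fold was reached by Tlr1 and Tlr8 in WT and by Tlr1 and Cd14 in the libraries labelled Acod1-/-, and by 16.1% and 13.1% of all genes. The increase of Tlr6 in WT (log2 0.21, adjusted p = 0.0189) became -0.01 (adjusted p = 0.912) when libraries were scaled by total counts, which moved the median of all genes from 0.02 to -0.2. Under the same scaling Tlr13 was at 0.1 (adjusted p = 0.434) and Myd88 at 0.03 (adjusted p = 0.709). The share of calls that were increases moved from 51.3% to 30.9% in WT and from 45.9% to 28.4% in the libraries labelled Acod1-/-. In that WT comparison the 7 calls became 3 without WT vehicle replicate 2 (53.6% of all genes in that fit), which ended those of Tlr4, Tlr6, Tlr13 and Myd88, and 4 without WT vehicle replicate 1 (50%), which ended those of Tlr4, Tlr13 and Myd88. Tlr13 also did not pass without WT OI+PM replicate 1 (log2 0.17, adjusted p = 0.066), nor Myd88 without WT OI+PM replicate 2 (log2 0.13, adjusted p = 0.183). Fitting the compared libraries alone ended the calls of Tlr4, Tlr6, Tlr13 and Myd88, with 45.3% of all genes called, and correction for gene length those of Tlr6 (log2 0.12, adjusted p = 0.149) and Myd88 (log2 0.02, adjusted p = 0.709).

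**Figure D3:**
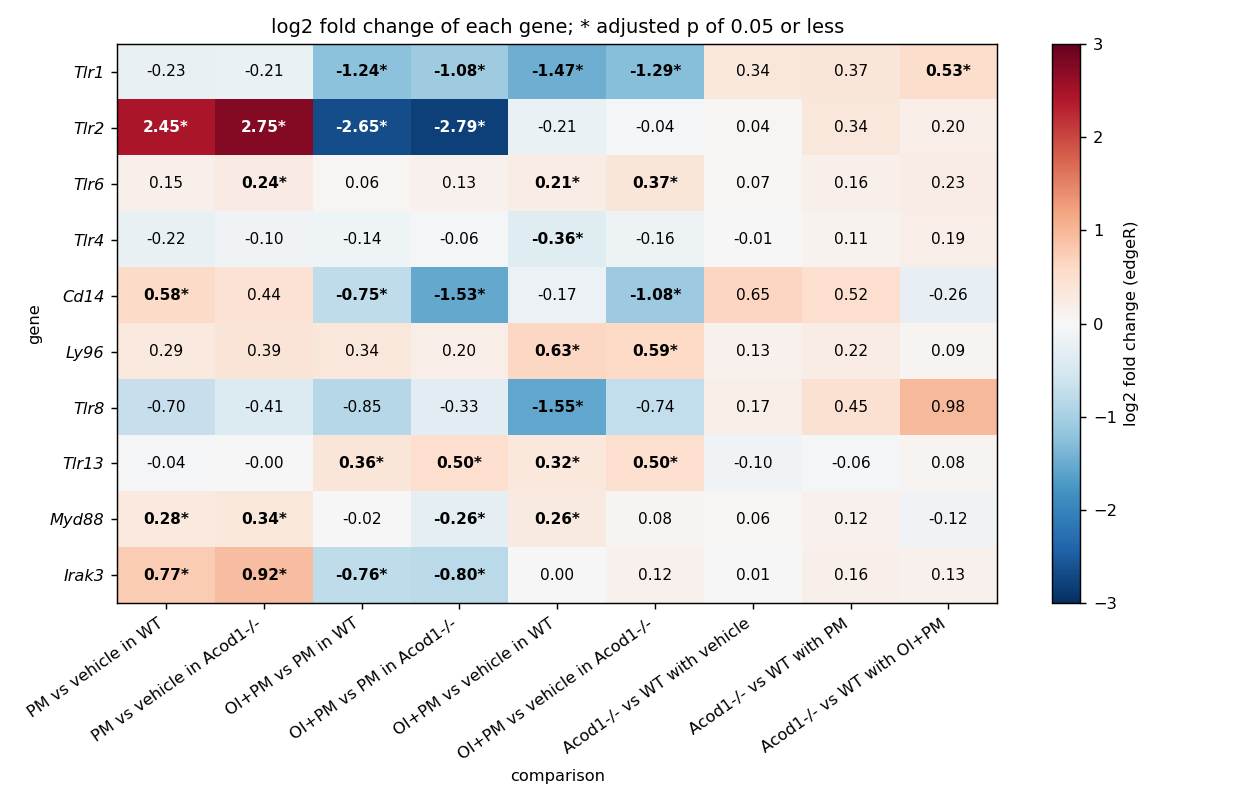
log2 fold change of each gene (rows) in 9 comparisons (columns), from the edgeR fit over 12 libraries. Colour gives size and direction, and bold values with a star passed an adjusted p of 0.05. Tlr2 has the largest values in the columns of PM against vehicle and OI+PM against PM, between -2.79 and 2.75, and the columns of Acod1-/- against WT hold a single star, for Tlr1 with OI+PM.

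Genotype was compared under each treatment. With vehicle none of the 10 passed edgeR's test, beside 1.83% of all genes. At an unadjusted p under 0.05 there were 2, Tlr1 (log2 0.34, unadjusted p = 0.00482) and Cd14 (log2 0.65, unadjusted p = 0.00433), beside 10.2% of all genes, and DESeq2 called 1, Cd14 (adjusted p = 0.015), beside 2.73%. With PM none passed, beside 2.4% of all genes, 4 had an unadjusted p under 0.05, beside 14%, and DESeq2 called 1, Tlr1 (log2 0.37, adjusted p = 0.0224), beside 3.87%. Fitting the compared libraries alone gave 4 calls with vehicle (Tlr1, Tlr8, Tlr13 and Cd14), beside 20.6% of all genes in that fit, and 1 with PM (Cd14, adjusted p = 0.0391), beside 1.55%. Correction for gene length gave Cd14 with vehicle (adjusted p = 0.00233), beside 3.32%, and Cd14 (0.00436), Tlr2 (0.017) and Ly96 (0.0183) with PM, beside 5.25%. The median of the 10 was 0.07 with vehicle and 0.19 with PM, beside 0.01 and 0 over all genes. The libraries of the genotypes did not overlap for 7 of the 10 genes with vehicle, beside 58.6% of all genes, and 8 with PM, beside 40.6%, Cd14 and Tlr1 being higher in those labelled Acod1-/- under both.

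With OI+PM, Tlr1 was the only gene of the 10 to pass edgeR's test with all libraries, beside 6.96% of all genes (36.1% of them higher, or 53.4% under scaling by total counts), and it stayed under 2-fold, which 0.917% of all genes reached. It was higher in the libraries labelled Acod1-/- by 0.53 on the log2 scale (SE 0.10, adjusted p = 0.0161), and did not pass without Acod1-/- OI+PM replicate 1 (adjusted p = 0.108) or replicate 2 (0.112), nor when the compared libraries were fitted alone (0.336). Tlr6 passed in 5 of 10 other settings, among them DESeq2 (log2 0.24, adjusted p = 0.0405), scaling by total counts (log2 0.30, adjusted p = 0.0384) and correction for gene length (log2 0.28, adjusted p = 0.0208). That correction also gave calls for Ly96 (log2 0.32, adjusted p = 0.00598) and Tlr2 (log2 0.3, adjusted p = 0.0488), beside 15.4% of all genes. Tlr8 had the largest difference, 0.98 (SE 0.32, adjusted p = 0.0917). Without WT OI+PM replicate 1, 7 of the 10 passed, beside 48.6% of all genes in that fit, among them Tlr4 at 0.35 (adjusted p = 0.0465), Tlr8 at 1.74 (adjusted p = 0.000446) and Cd14 at -0.56 (adjusted p = 0.00197), and without WT OI+PM replicate 2, 2 passed, beside 3.6% of all genes, Tlr1 and Tlr2 (log2 0.41, adjusted p = 0.044), and Cd14 was at 0.13 (adjusted p = 0.524). With a library left out, the remaining WT library is assumed to vary like the other groups.

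**Figure D4:**
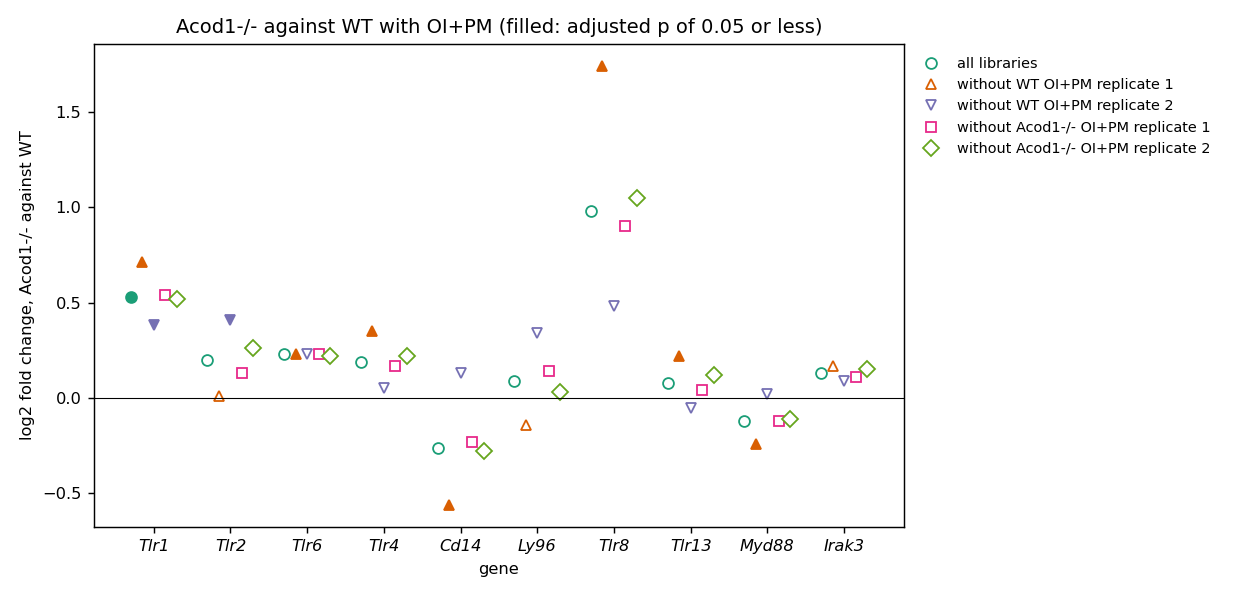
log2 fold change of each gene between the libraries labelled Acod1-/- and WT with OI+PM, with all libraries (circles) and with each of the 4 libraries left out. Filled symbols passed an adjusted p of 0.05. Tlr8 runs from 0.48 to 1.74 and Cd14 from -0.56 to 0.13 according to which WT library is left out.

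Whether the effect of a treatment differed between genotypes was tested as an interaction. None of the 10 and 0% of the 11228 genes passed edgeR's test for PM or for OI. At an unadjusted p under 0.05 there were 0 of the 10 for PM, beside 2.43% of all genes, and 1 for OI, beside 6.39%. This was Cd14, whose decrease with OI was larger in the libraries labelled Acod1-/- by 0.77 on the log2 scale (SE 0.25, adjusted p = 0.702). DESeq2 called 0 of the 10 in either test, beside 0.0267% of all genes for PM and 0.303% for OI. For Tlr2 the difference between genotypes was 0.30 (SE 0.15) for PM and -0.14 (SE 0.16) for OI. With a library left out, the OI interaction ranged from 0.03 to 1.29 for Tlr8 and from -1.08 to -0.38 for Cd14. The values of 1.29 and -1.08 were those without WT OI+PM replicate 1.

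The other genes of the pathway comprised 59 by name, of which 52 were tested. Of the other TLRs, Tlr3, Tlr7 and Tlr9 were tested, whereas Tlr5, Tlr11 and Tlr12 had at most 20 counts in any library. Tlr3, an endosomal receptor of double-stranded RNA, was at 26.5 and 22.8 CPM with PM and 10.5 and 8.53 CPM with OI+PM in WT, so that it fell by 1.38 on the log2 scale (adjusted p = 4.83e-06), and fell by 1.03 in the libraries labelled Acod1-/- (adjusted p = 3.82e-05). Tlr9, which reads DNA, fell with PM in WT by 1.48 (adjusted p = 0.00909), and the value of -0.79 in the libraries labelled Acod1-/- did not pass (adjusted p = 0.0959). The exons of Tlr3 overlap an opposite-strand gene by 381 bases, and those of Cd180 below by 182 bases. Of the genes named below, Nfkbib, Wdfy1 and Irf7 also overlap opposite-strand genes, by 356, 126 and 45 bases. Hsp90b1 overlaps genes on both strands by 632 bases.

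With PM, 19 pathway genes rose and 5 fell in WT, beside 12.6% of all genes called higher and 12.2% lower. In the libraries labelled Acod1-/- 21 rose and 3 fell, beside 12% and 11.9%. Of 11 negative regulators tested 6 rose and 1 fell in each genotype, with a median log2 of 0.8 in WT and 0.93 in the libraries labelled Acod1-/-. Those that rose in WT included the NF-κB inhibitors Nfkbie (log2 2.05, adjusted p = 3.02e-06) and Nfkbia (log2 1.96, adjusted p = 3.19e-06). Il1rl1, the receptor of IL-33, was the gene that fell, by 2.18 in WT. Among the transcription factors Irf7, which drives type I interferon genes, rose by 2.36 in WT and 2.11 in the libraries labelled Acod1-/-, and the NF-κB subunit Relb by 1.7 and 1.75. Among the chaperones that fold or move TLRs, Hsp90b1 was up by 0.49 and 0.44 and Unc93b1 by 0.39 and 0.43. Without WT vehicle replicate 1 the WT count of 24 became 14, while the share of all genes went from 24.8% to 10.6%.

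OI before PM raised 8 pathway genes and lowered 20 in WT, beside 21.3% of all genes called higher and 22.6% lower. In the libraries labelled Acod1-/- it raised 6 and lowered 18, beside 13.9% and 20.6%. Of the 11 negative regulators 7 fell in each genotype, among them Tnip3 by 1.11 and 1.16 and Nfkbia by 0.76 and 0.91, while 2 rose in WT (Nfkbib by 0.52 and Tollip by 0.19) and 1 in the libraries labelled Acod1-/- (Otud7b by 0.32). Irf7 fell by 2.87 in WT (adjusted p = 3.35e-08) and by 3.19 in the libraries labelled Acod1-/- (adjusted p = 1.87e-08). The TLR4-like surface receptor Cd180 fell by 1.01 and 0.75, and its partner Ly86, a relative of Ly96, by 0.99 and 1.24. Cd36, a scavenger receptor that assists TLR2, rose by 0.93 in WT (adjusted p = 2.54e-06) and by 1.19 in the libraries labelled Acod1-/- (adjusted p = 4.56e-07). Under scaling by total counts 2 rose and 23 fell in WT, beside 1413 higher and 3317 lower of all 11228 genes. In the libraries labelled Acod1-/- 2 rose and 21 fell under that scaling, beside 1137 and 2690.

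**Figure D5:**
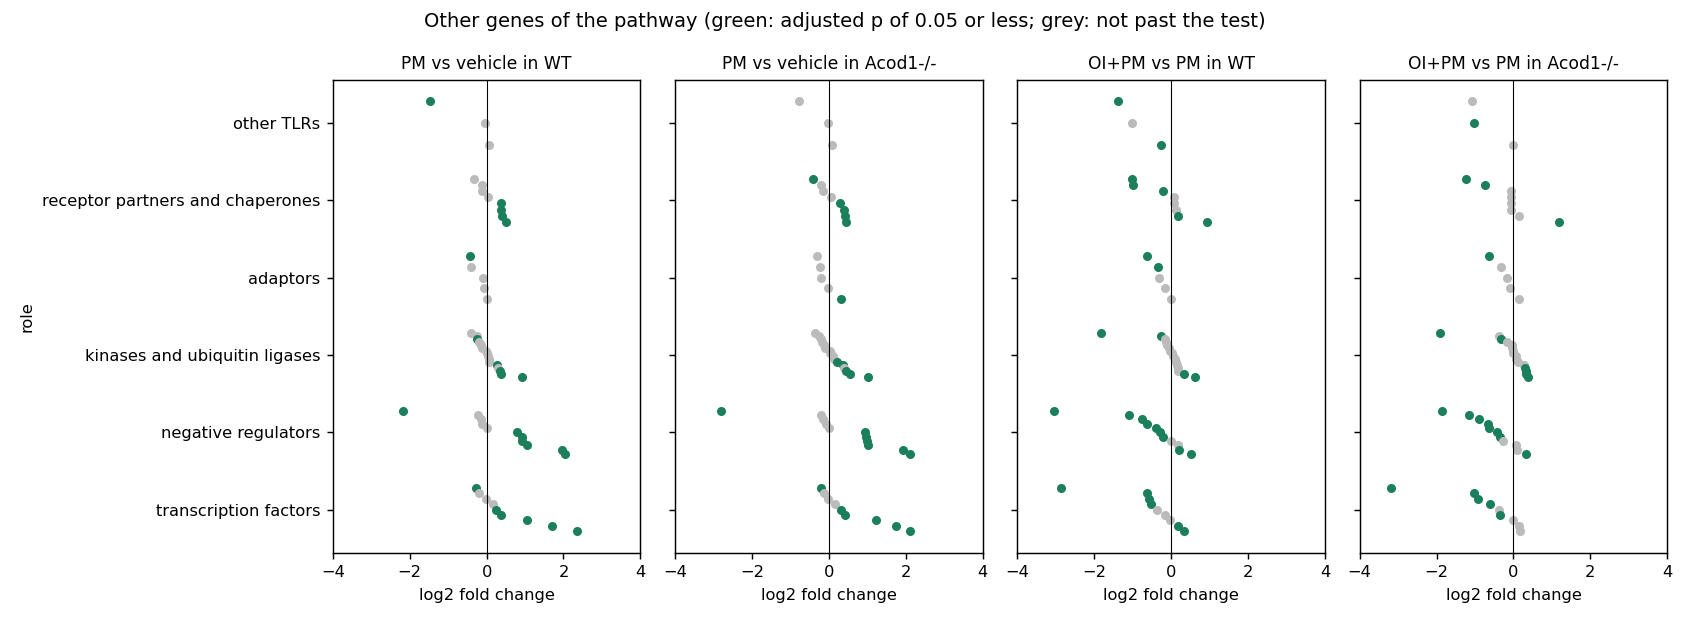
log2 fold change of the 52 other pathway genes by role, in 4 comparisons, with genes past an adjusted p of 0.05 in green. Most called negative regulators and transcription factors lie right of 0 with PM and left of 0 with OI before PM, and the point near -3 among the negative regulators in WT with OI is Il1rl1 at -3.06. The same PM libraries enter both kinds of comparison with opposite sign, so the directions are not independent.

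Against vehicle, OI+PM raised 21 pathway genes and lowered 17 in WT, and raised 18 and lowered 16 in the libraries labelled Acod1-/-, of 52 tested, beside 65.5% and 49.4% of all genes called. Nfkbie stayed above vehicle, by 1.41 in WT and 1.46 in the libraries labelled Acod1-/-, and the lowest was Il1rl1, at -5.24 and -4.66. Without Acod1-/- vehicle replicate 2 the second count of 34 became 20, and without Acod1-/- OI+PM replicate 2 it became 22, with 35.1% and 34.4% of all genes called in these fits. Between genotypes 2 of the 52 pathway genes passed with vehicle, 2 with PM and 7 with OI+PM, beside 1.83%, 2.4% and 6.96% of all genes, and Wdfy1, which encodes an adaptor of TLR3 and TLR4 signalling, passed in all 3 (log2 1.96 to 2.25). Wdfy1 is also the gene chosen above to compare the mouse stocks, so its difference cannot be assigned to the Acod1 allele. The counts of 2 became 1 without any of the 4 libraries, where at most 0.561% and 1.36% of all genes passed. With OI+PM the count of 7 was 30 without WT OI+PM replicate 1, where 48.6% of all genes passed, and 1 without any of the other 3 libraries.

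Genes with the course most like those of the 3 most variable members were named by Pearson's r of log2 CPM over the 12 libraries, among 9571 genes. For Tlr2 they were Igsf6 (0.995), Lpcat2 (0.992) and Cxcl10 (0.991), for Tlr8 Zfp217 (0.993), Dennd5a (0.992) and Stk4 (0.991), and for Tlr1 Tent5a (0.996), Man1a (0.99) and Themis2 (0.989). These are descriptions over libraries that share treatments.

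The neutrophil markers, of which 3 of 9 passed the filter, summed to 6.47 to 61 CPM per library, and moved with treatment through S100a8. This gene was at 3.53 to 4.46 CPM with vehicle, 9.97 to 15.2 CPM with PM and 28.8 to 60.5 CPM with OI+PM, highest in WT OI+PM replicate 2, while Ly6g had 1 count in 1 library and 0 in the other 11. Tlr2 was low in every OI+PM library, where S100a8 was highest, and the part of such cells in the values of the 10 genes was not tested.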

How the data were processed

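RNA was sequenced as 50 bp single-end reads from 12 libraries, 2 in each of 6 groups. The authors counted reads per gene and deposited these raw counts. The submitters' processing notes name FastQC 0.11.5, STAR 2.5.3a, Picard 2.9.0, featureCounts and DESeq2. The annotation release, the strand setting and the treatment of multiply mapping reads are not given in the sources used here. Ensembl identifiers were matched to symbols and positions in GENCODE M21 (GRCm38).

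Genes with CPM above 1.5 in at least 2 libraries were kept, leaving 11228 genes. The study's methods give this CPM limit but not the number of libraries. Counts were fitted with edgeR 4.0.16 in R 4.3.3 (TMM scaling, quasi-likelihood F test, 6 group means, 6 residual degrees of freedom), p-values were adjusted by Benjamini-Hochberg over all genes tested, and a gene passed at an adjusted p of 0.05 or less. The SE of a log2 fold change is its size divided by the square root of F. DESeq2 1.42.0 was an alternative, as were other scalings, filters, a correction for gene length, replicate blocks and the omission of each library. The procedure was tested on simulated data, in which all groups had the same spread and replicates did not differ with gene length. The WT libraries with PM and with OI+PM depart from both conditions, so that test does not cover them. All 10 genes were described in every library, with up to 3 genes of largest change per pathway role and comparison. The members and lists were chosen with earlier results of these data known. Depth was 33616577 to 36817898 counts a library, and the number of libraries, 2 a group, limits the precision.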

Additional observations from a re-analysis of the deposited data

How the results depend on the processing

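The calls of Tlr2 and Irak3 with PM and with OI before PM, and of Tlr1 with OI before PM, passed in both genotypes under all 10 other settings and with each of 4 libraries left out. The increase of Tlr6 with OI+PM against vehicle in WT became -0.01 under scaling by total counts. Requiring a 2-fold change left 1 of the 10 genes for PM in each genotype, 2 in WT and 3 in the libraries labelled Acod1-/- for OI before PM, 2 and 2 for OI+PM against vehicle, and 0 between genotypes with OI+PM. Fitting the compared groups alone gave 8 for PM in the libraries labelled Acod1-/- (beside 50.4% of all genes in that fit), 3 for OI before PM in WT (17.3%), 3 and 9 for OI+PM against vehicle in WT and Acod1-/- (45.3% and 74.4%), and 4, 1 and 0 between genotypes with vehicle, PM and OI+PM (20.6%, 1.55% and 0.0178%). Between genotypes in that order DESeq2 gave 1, 1 and 2 (2.73%, 3.87% and 11.8% of all genes), correction for gene length 1, 3 and 4 (3.32%, 5.25% and 15.4%), and this correction with a replicate block 1, 4 and 5 (3.31%, 5.33% and 16.9%), while scaling by total counts gave 2 with OI+PM (6.87%). With each library left out, the counts ranged from 2 to 5 for PM in WT (10.6% to 30.7% of all genes), 2 to 2 for PM in Acod1-/- (12.4% to 15.2%), 3 to 7 for OI+PM against vehicle in WT (50% to 74.1%), 0 to 7 between genotypes with OI+PM (0.846% to 48.6%) and 0 to 2 for the OI interaction (0% to 4.68%).

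For the pathway genes, read beside the shares of all genes given above for the same fits, fits of the compared groups alone gave 37 for PM in Acod1-/-, 13 for OI before PM in WT, and 15, 1 and 1 between genotypes with vehicle, PM and OI+PM. Between genotypes DESeq2 gave 5 with PM, the filter of at least 10 counts gave 3 with OI+PM (3.59% of all genes), the filter on all 12 libraries 1 with vehicle (1.33%) and 4 with OI+PM (5.99%), length correction 6 with PM and 13 with OI+PM, and length correction with the block 4, 6 and 12. Leaving out a library gave 14 to 27 for PM in WT, 20 to 23 for OI+PM against vehicle in Acod1-/- (34.4% to 36.8%), and 1 to 1, 1 to 1 and 1 to 30 between genotypes with vehicle (0.463% to 0.561%), PM (0.659% to 1.36%) and OI+PM. The cause was not tested.

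Deviations of same-numbered libraries correlated between -0.41 and 0.73 over the 9 comparisons, with values of 0.23, 0.73 and 0.24 between treatments in WT, and nothing states that a number marks a shared source, so the numbers were not taken as pairs. The replicate block alone changed 2 calls, both of Tlr8, which passed at -0.88 (adjusted p = 0.0291) for OI before PM in WT and at -0.75 (adjusted p = 0.046) for OI+PM against vehicle in Acod1-/-. A block with the numbers of the Acod1-/- PM libraries exchanged, and the alternatives for pathway genes, were chosen after seeing the data. That block gave 3 of the 10 genes and 11 pathway genes between genotypes with OI+PM (16.7% of all genes). With 2 libraries a group, a call lost on leaving out a library also loses a residual degree of freedom.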
